A study of Mus musculus with 9 samples.

Results

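A set of 9 genes of the plasminogen activator system and of blood coagulation was followed in the injured spinal cord of mice: Plau, Plat, Plaur, Serpine2, F3, F7, F10, F13a1 and Thbd. They were taken as a named list and matched by symbol to the identifiers of the count table, which gave 9 of its 52550 genes. All 9 passed the filter on low counts and were among the 18699 genes tested. RNA sequencing had been performed on spinal cord segments around the operated site, taken 7 days after surgery from adult female C57BL/6N mice, 3 mice per group. The Sham group received a laminectomy alone, and no injection is stated for it. In the SCI group the cord was contused and DMSO, the solvent, was injected intraperitoneally. SCI+FIPI mice had the same injury and a daily intraperitoneal dose of FIPI, an inhibitor of phospholipase D, dissolved in DMSO, until the tissue was taken. Sham therefore differed from both other groups in the injury and in the injections. The question was whether transcripts of these genes changed with the injury, and whether FIPI altered them in injured cord.

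Plasmin, the protease that dissolves fibrin and also cleaves matrix proteins, is cut from plasminogen by the urokinase-type activator (Plau) or the tissue-type activator (Plat). The urokinase receptor (Plaur) holds urokinase on the cell surface, and protease nexin (Serpine2) inhibits both activators and thrombin. Coagulation starts when tissue factor (F3) binds factor VII (F7), and the complex activates factor X (F10), which leads to thrombin. Thrombin makes the fibrin that factor XIII (F13a1 encodes its A chain) cross-links, and thrombomodulin (Thbd) turns thrombin towards the activation of protein C. In the nervous system tissue-type activator and protease nexin are made by resident cells, whereas urokinase, its receptor and the A chain of factor XIII are also known from macrophages.

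The total count per mouse lay between 20806000 and 24016169 in Sham, 23981165 and 24582377 in SCI, and 22364964 and 23703938 in SCI+FIPI. Levels are given as CPM, the count scaled to a common library total after TMM normalization, and a difference is the log2 fold change with its standard error (SE). Calls required a log2 fold change of 0.5 or more in either direction together with an adjusted p under 0.05, from the quasi-likelihood test of edgeR adjusted by Benjamini-Hochberg over all genes tested. Every adjusted p below comes from that test unless another is named. The tissue was checked by markers fixed as lists: all 10 neuronal, 6 oligodendrocyte and 6 astrocyte markers were detected in each group. Summed CPM of the 8 macrophage and monocyte markers lay between 161 and 306 in Sham, 9081 and 11006 in SCI, and 6081 and 9022 in SCI+FIPI. The 6 fibroblast markers summed to between 339 and 745, 6852 and 9498, and 6243 and 8322 CPM, and the 10 neuronal markers to between 7415 and 8462, 2333 and 3351, and 3872 and 4583 CPM, in the same order. No macrophage, fibroblast or neuronal marker was at 0 in any group. In bulk tissue, fewer cells of a type and less RNA per cell cannot be told apart, and the part of these cell types in the values below was not tested.

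After injury 7 of the 9 genes were called higher (Plau, Plat, Plaur, Serpine2, F7, F10 and F13a1) and none lower. Of all genes tested, 24.4% were called higher and 22.5% lower in SCI against Sham. The median log2 fold change of the 9 genes was 3.64, beside a median of -0.00315 over all genes tested. Every SCI mouse lay above every Sham mouse for 9 of 9 genes, which held for 35.6% of all genes tested. With 3 mice against 3 the exact two-sided permutation test on log2 CPM reached 0.1, the smallest p this design allows, for each of the 9.

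In SCI+FIPI against SCI the log2 fold change was below 0 for all 9 genes and 2 were called lower, Plaur and F10. The background was 0.695% of genes called lower and 2.36% called higher. The members' median was -0.42, beside -0.00135 over all genes tested. Every SCI+FIPI mouse lay below every SCI mouse for 7 genes, where 14.5% of all genes tested did so, and the groups overlapped for F13a1 and Thbd. Both comparisons used the same 3 SCI mice, so a high or low SCI value moved them in opposite directions. Against Sham, 7 genes were called higher in SCI+FIPI, where 21.2% of all genes tested were called higher and 17% lower. Every SCI+FIPI mouse was above every Sham mouse for 8 of the 9, F3 being the exception, beside 33.4% of all genes tested. The median of the 9 was 3.07 in this comparison, beside -0.00277 over all genes tested.

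**Figure D1:**
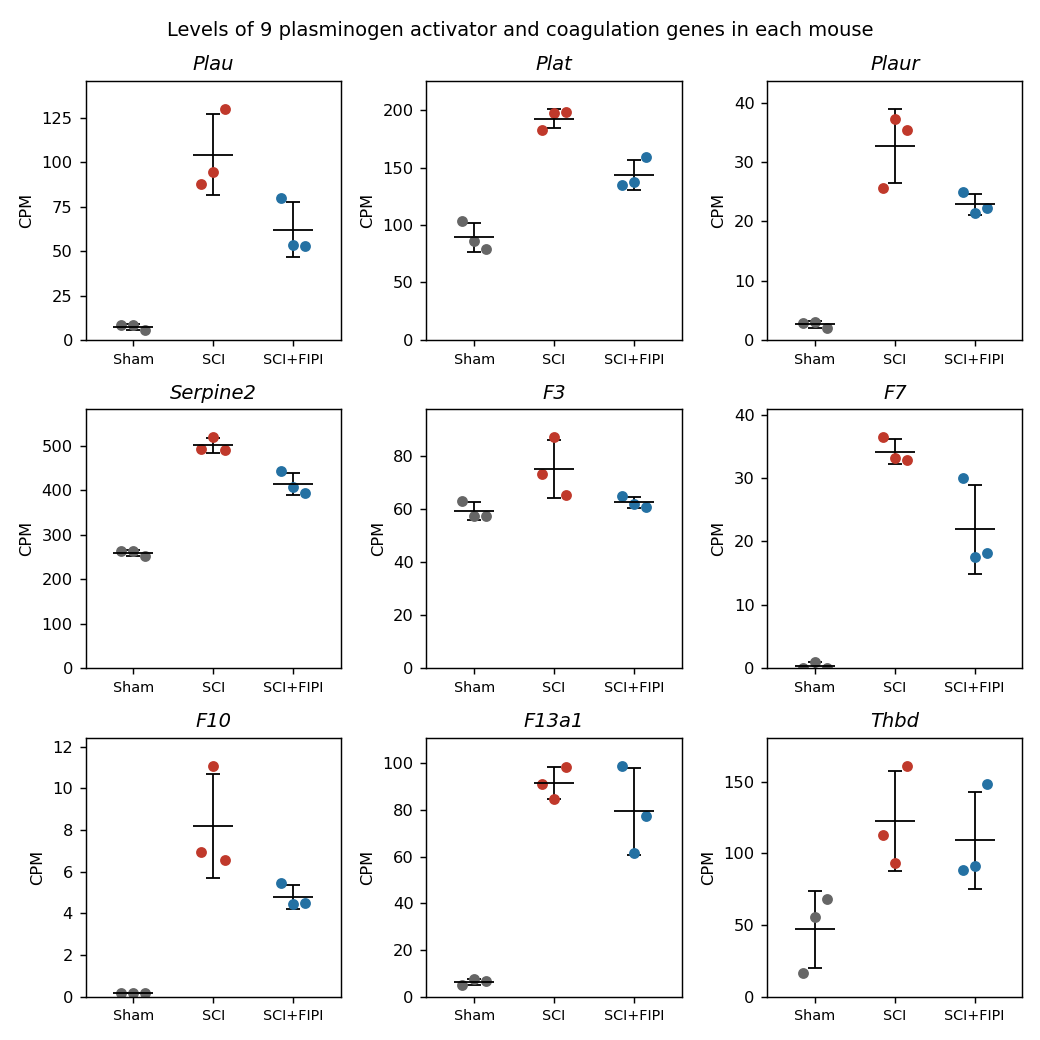
CPM of each of the 9 genes (y axis, linear from 0) in Sham, SCI and SCI+FIPI mice. Points are mice, horizontal lines are means and bars are SD (n = 3). All SCI points lie above all Sham points, and SCI+FIPI points lie below the SCI points for all genes but F13a1 and Thbd.

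The transcript of the urokinase-type activator was scarce in Sham and abundant after injury. Plau (ENSMUSG00000021822; GRCm38, chr14:20836660-20843385, plus strand, 11 exon blocks) measured 8.43, 8.21 and 5.56 CPM in the Sham mice, 87.9, 94.8 and 130.3 CPM in the SCI mice and 79.9, 53.6 and 52.8 CPM in the SCI+FIPI mice. No group overlapped another, and the first SCI+FIPI mouse stood nearest to SCI. Plau thus rose 14.1-fold with injury (log2 fold change 3.82, SE 0.279, adjusted p = 1.23e-05). The SCI+FIPI mean of 62.1 ± 15.4 (SD, n = 3) CPM was below the SCI mean of 104.3 ± 22.7 (SD, n = 3) CPM by a log2 fold change of -0.75 (SE 0.230), which did not pass the test (adjusted p = 0.0945). DESeq2 gave an adjusted p of 0.0324 and limma-voom one of 0.0165 for the same difference, and edgeR's test gave 0.0363 without the first SCI+FIPI mouse (log2 fold change -0.97). Other settings did not pass: apart from leaving out mice, adjusted p reached 0.173 by the test of the setting. Leaving out single mice gave log2 fold changes from -0.97 to -0.56.

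Plat (ENSMUSG00000031538; chr8:22757727-22782844, plus strand, 13 exon blocks) had 103.6, 85.9 and 78.8 CPM in Sham, 183, 197 and 198 CPM in SCI, and 135, 138 and 159 CPM in SCI+FIPI. The groups were separate and SCI+FIPI lay between the other two. Plat rose 2.16-fold with injury (log2 fold change 1.11, SE 0.0948, adjusted p = 3.29e-07) and stayed above Sham under FIPI (0.69, SE 0.0946, adjusted p = 3.92e-05). Between SCI+FIPI and SCI the log2 fold change of -0.42 (SE 0.0932) had an adjusted p of 0.0165 but did not reach the fold limit, so Plat was not called.

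The balance of the transcripts of the activators shifted towards that of urokinase. The ratio of Plau to Plat per exonic length was 0.216, 0.253 and 0.187 in the Sham mice, 1.27, 1.27 and 1.73 in the SCI mice, and 1.56, 1.03 and 0.876 in the SCI+FIPI mice. Every SCI mouse and every SCI+FIPI mouse lay above every Sham mouse. Which activator led after injury depended on the length used: with the longest transcripts (2342 bases for Plau and 4042 for Plat, an alternative chosen after seeing the data) the ratios were 0.141, 0.166 and 0.123 in Sham, 0.829, 0.830 and 1.13 in SCI, and 1.02, 0.672 and 0.573 in SCI+FIPI. Differences of the log2 ratio between groups do not depend on the length. The log2 ratio was 2.70 higher in SCI than in Sham (exact two-sided permutation p = 0.1, the smallest possible). It was -0.33 in SCI+FIPI relative to SCI (exact permutation p = 0.3), and these groups overlapped.

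Plaur (ENSMUSG00000046223; chr7:24462484-24475968, plus strand, 6 exon blocks), the receptor, was read by 59, 71 and 48 counts in Sham (2.63 ± 0.556 CPM, SD, n = 3). It reached 25.6, 37.3 and 35.3 CPM in SCI and 24.9, 21.4 and 22.2 CPM in SCI+FIPI. The first mouse of SCI was close to the first of SCI+FIPI, yet the groups did not overlap. Plaur rose 12.4-fold with injury (log2 fold change 3.64, SE 0.177, adjusted p = 2.88e-09). It fell by 0.52 on the log2 scale in SCI+FIPI against SCI (SE 0.141, adjusted p = 0.039). This second call rested close to both limits, since it was lost on leaving out the first Sham mouse, SCI mouse 2 or 3, or any single SCI+FIPI mouse (adjusted p between 0.0515 and 0.165). It was also lost with upper-quartile factors (-0.497, under the fold limit). Plaur remained above Sham under FIPI (3.12, SE 0.178, adjusted p = 2.51e-08).

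Serpine2 (ENSMUSG00000026249; chr1:79794197-79861180, minus strand, 10 exon blocks), the inhibitor, had the highest level per length of the 9 in each group. Its CPM were 262, 263 and 252 in Sham, 493, 519 and 489 in SCI, and 442, 408 and 393 in SCI+FIPI. The spread within each group was small and the groups were separate. Serpine2 rose 1.93-fold with injury (log2 fold change 0.95, SE 0.0628, adjusted p = 6.86e-09). Between SCI+FIPI and SCI the log2 fold change was -0.27 (SE 0.0621, adjusted p = 0.0156), which is under the fold limit.

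F3 (ENSMUSG00000028128; chr3:121723537-121735048, plus strand, 7 exon blocks), which encodes tissue factor, had the smallest fold change after injury. It measured 63.0, 57.3 and 57.4 CPM in Sham, 73.3, 87.1 and 65.4 CPM in SCI, and 64.9, 62.0 and 60.8 CPM in SCI+FIPI. All SCI mice exceeded all Sham mice by a small margin, and the SCI+FIPI mice overlapped those of Sham. The log2 fold change in SCI against Sham was 0.35 (SE 0.0881, adjusted p = 0.00324), under the fold limit. It was -0.27 in SCI+FIPI against SCI (adjusted p = 0.0722) and 0.08 in SCI+FIPI against Sham (adjusted p = 0.462).

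The promoters of Plaur and F3 are shown because both held the letters of the AP-1 motif although the transcripts differed widely in their response to injury. The 250 bases before the RefSeq start (GRCm38.p6) are given 5′ to 3′ on the plus strand, with AP-1 (TGANTCA) and Sp1 (GGGCGG) matches on either strand in capitals. Neighbouring Sp1 matches in Plaur share a base or adjoin, so they read as 1 run.
Plaur, chr7:24462233-24462482: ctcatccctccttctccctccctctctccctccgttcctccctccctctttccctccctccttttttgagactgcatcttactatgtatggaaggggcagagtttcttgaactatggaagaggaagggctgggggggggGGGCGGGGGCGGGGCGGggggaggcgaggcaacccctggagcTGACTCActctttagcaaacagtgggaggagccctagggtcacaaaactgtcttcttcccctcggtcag
F3, chr3:121723287-121723536: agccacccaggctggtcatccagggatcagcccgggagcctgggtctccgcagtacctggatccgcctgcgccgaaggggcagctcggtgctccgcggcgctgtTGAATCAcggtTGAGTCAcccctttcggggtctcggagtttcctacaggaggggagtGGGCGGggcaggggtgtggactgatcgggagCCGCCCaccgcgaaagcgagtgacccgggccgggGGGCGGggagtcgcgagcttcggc
Plaur held 1 AP-1 match, 69 bases before the start, and 3 Sp1 matches. F3 held 2 AP-1 matches, 146 and 135 bases before the start, and 3 Sp1 matches. Of 32851 promoters of the same length, 6.75% held an AP-1 match and 32.7% an Sp1 match. Promoters of 6 of the 9 genes were matched, in 7 windows. Serpine2 had 6 Sp1 matches, and the windows of F7, F10 and F13a1 had none. Letters of CRE (TGACGTCA), PU.1 (GAGGAAGT), the TATA box (TATAAA) and the NF-kB motif, present in 1.55%, 2.44%, 12.4% and 7.25% of all promoters, were in none of the 7 windows. A match of letters is a description of the sequence and not a bound site. Plau, Plat and Thbd are named only.

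F7 and F10 are neighbours on chromosome 8 that encode vitamin K-dependent proteases, chiefly known as liver products. F7 (ENSMUSG00000031443; chr8:13026034-13035809, plus strand, 8 exon blocks) ended 1498 bases before the start of F10 (ENSMUSG00000031444; chr8:13037308-13056676, plus strand, 9 exon blocks). They had the largest rises of the 9 genes, ranks 13 and 28 of all genes tested by absolute log2 fold change, so their promoters are shown in the same way. No motif searched was found, hence no capitals.
F7, chr8:13025784-13026033: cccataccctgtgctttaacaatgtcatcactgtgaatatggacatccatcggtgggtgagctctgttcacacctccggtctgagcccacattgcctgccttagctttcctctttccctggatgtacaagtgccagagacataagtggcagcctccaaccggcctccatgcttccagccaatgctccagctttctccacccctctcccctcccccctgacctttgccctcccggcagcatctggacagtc
F10, chr8:13037058-13037307: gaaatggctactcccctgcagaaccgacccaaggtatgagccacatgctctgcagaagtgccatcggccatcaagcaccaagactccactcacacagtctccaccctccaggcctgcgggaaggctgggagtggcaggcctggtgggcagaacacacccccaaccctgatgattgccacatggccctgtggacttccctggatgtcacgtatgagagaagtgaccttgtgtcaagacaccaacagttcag
The next coding gene on that side, Proz, which encodes protein Z, did not pass the test (3.29 CPM in SCI and 3.28 CPM in Sham, adjusted p = 0.997).

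Reads of F7 numbered 1, 24 and 1 in the Sham mice, 869, 803 and 779 in the SCI mice and 672, 416 and 433 in the SCI+FIPI mice. The gene was thus near 0 in 2 of the 3 Sham mice and high in each injured mouse. F7 rose with a log2 fold change of 6.46 (SE 0.587, adjusted p = 4.87e-05), from 0.375 ± 0.573 (SD, n = 3) to 34.2 ± 1.97 (SD, n = 3) CPM. The second Sham mouse decided the size. It also carried 75 counts of the liver marker Alb where the other Sham mice had 2 and 6. Its 5 liver markers summed to 4.66 CPM, mostly from Alb, against 0.862 and 0.878. Markers of blood cells were higher in it as well: the 6 neutrophil markers summed to 106 CPM against 45.6 and 37.1. The 8 macrophage and monocyte markers summed to 306 CPM in it, against 260 and 161 CPM. The part of these in its F7 count was not tested. Without it the fitted log2 fold change was 9.42. Set against the 2 counts of the remaining Sham mice, the 2451 counts of the SCI mice gave a ratio per total count of 756 (95% exact interval 209 to 6245, for counting error only).

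Under FIPI, F7 measured 30.0, 17.6 and 18.2 CPM, below the SCI values of 36.4, 33.2 and 32.9 CPM in every mouse. The first SCI+FIPI mouse stood apart from its group, close to SCI. The log2 fold change of -0.64 (SE 0.348) did not pass edgeR's test (adjusted p = 0.314), but was called by limma-voom (-0.69, adjusted p = 0.032). That was the lowest value among the alternative settings, leaving out mice apart, whose own tests gave adjusted p up to 0.729. F7 remained above Sham (5.82, adjusted p = 0.000133).

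F10 was read by 4 counts in each Sham mouse, by 166, 268 and 155 in the SCI mice and by 122, 105 and 107 in the SCI+FIPI mice. The groups were separate, with the second SCI mouse well above the other two. F10 rose with a log2 fold change of 5.49 (SE 0.312, adjusted p = 1.62e-09) and fell by 0.77 on the log2 scale in SCI+FIPI against SCI (SE 0.196, adjusted p = 0.0249), from 8.19 ± 2.51 (SD, n = 3) to 4.80 ± 0.569 (SD, n = 3) CPM. The latter call was lost without the second SCI mouse (-0.49, adjusted p = 0.125), SCI+FIPI mouse 2 (adjusted p = 0.118) or SCI+FIPI mouse 3 (adjusted p = 0.0826). Of the 50-base stretches of its longest transcript, 1.92% also occurred in other genes, which makes a small part of its reads uncertain. The corresponding share was 0.179% for Serpine2 and 0 for the other 7 genes.

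F13a1 (ENSMUSG00000039109; chr13:36867178-37050244, minus strand, 18 exon blocks), the cross-linking enzyme's A chain, had 4.98, 7.43 and 6.77 CPM in Sham, 91.1, 84.6 and 98.2 CPM in SCI, and 98.9, 61.7 and 77.3 CPM in SCI+FIPI. It was low in all Sham mice and high in all injured ones, and the first SCI+FIPI mouse exceeded every SCI mouse. F13a1 rose 14.2-fold (log2 fold change 3.83, SE 0.212, adjusted p = 7.28e-07), whereas the difference between SCI+FIPI and SCI did not pass the test (-0.20, SE 0.171, adjusted p = 0.518). The antisense gene Gm30489 shares 74 exonic bases with it, and whether counting used the strand is not given in the sources used here. Platelets also carry this chain: their 6 markers summed to between 6.80 and 13.4 CPM in Sham, 46.0 and 52.9 CPM in SCI, and 39.0 and 47.4 CPM in SCI+FIPI, with 2 of 5 tested called higher after injury. The sum rose through Pf4 (1.58 CPM in Sham and 39.9 CPM in SCI): the 3 tested markers not called had log2 fold changes below 0, the list's median was -0.239, and without Pf4 the sums were 5.60 to 11.2, 9.68 to 10.7 and 7.64 to 13.7 CPM in the same order of groups.

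Thbd (ENSMUSG00000074743; chr2:148404466-148408188, minus strand, a single exon), the cofactor that binds thrombin, varied widely between mice. It measured 16.5, 56.0 and 68.4 CPM in Sham, 113, 93.4 and 161 CPM in SCI, and 88.3, 90.9 and 148 CPM in SCI+FIPI. The first Sham mouse was far below the other two, and it also had the lowest fibroblast marker sum, 339 CPM against 745 and 648. Its endothelial marker sum was close to theirs, 263 CPM against 278 and 288. The part of these cell types in its Thbd count was not tested. The log2 fold change of 1.38 in SCI against Sham (SE 0.527) did not pass edgeR's test (adjusted p = 0.0573), but passed with DESeq2 (adjusted p = 0.0171) and limma-voom (adjusted p = 0.00403). It was 0.98 without the first Sham mouse. SCI+FIPI and SCI overlapped (-0.17, SE 0.508, adjusted p = 0.883).

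**Figure D2:**
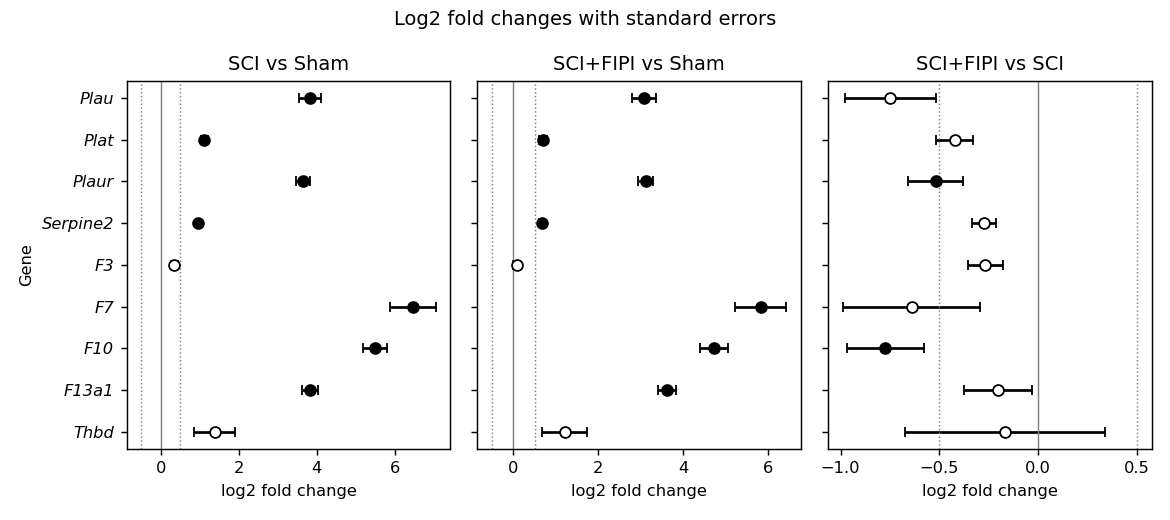
Log2 fold changes (x axis) of the 9 genes in each comparison with bars of 1 SE, from the fit over all 9 mice. Filled points were called and open points were not, and dotted lines mark the fold limit of 0.5. The x axis of SCI+FIPI vs SCI is expanded, and all its points lie below 0.

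In the SCI+FIPI group, the first mouse was the highest of its group for 7 of the 9 genes, the exceptions being Plat and Thbd. Its macrophage marker sum was 9022 CPM, against 6081 and 6366 CPM in the others. The microglia (725 CPM) and liver marker sums were also highest in this mouse. Its neutrophil (22.3 CPM), red blood cell (62.1 CPM) and endothelial (351 CPM) sums were the lowest of the group. The bone, fibroblast, astrocyte and oligodendrocyte sums were lowest in it as well, and the neuronal and platelet sums lay between those of the others. Of the 8 macrophage and monocyte markers, 8 were called higher in SCI against Sham (median log2 fold change 4.51). In SCI+FIPI against SCI (median -0.465) 0 were called by edgeR, DESeq2 or limma-voom, with 1 at an unadjusted p under 0.05. Endothelial markers, 6 genes, summed to between 263 and 288 CPM in Sham, 445 and 480 CPM in SCI, and 351 and 431 CPM in SCI+FIPI. The 5 bone markers summed to between 15.4 and 16.1, 77.9 and 91.0, and 26.2 and 36.2 CPM, most of it in SCI from Col10a1 (72.0 CPM). Without Col10a1 they summed to 15.4 to 16.0 CPM in Sham, 8.55 to 11.98 CPM in SCI and 11.5 to 32.2 CPM in SCI+FIPI, with SCI no longer the highest, and the list's median log2 fold change was 0.378 in SCI+FIPI against SCI. The macrophage and endothelial sums were ordered as the means of the 9 genes were (Sham lowest, SCI highest). Some other lists shared this order. The 6 microglia markers summed to 282 to 348 CPM in Sham, 772 to 890 CPM in SCI and 649 to 725 CPM in SCI+FIPI. Of these markers, 3 were below 0 and 3 above 0 in SCI+FIPI against SCI. Fibroblast and astrocyte sums had this order in their means, but their SCI and SCI+FIPI mice overlapped. Other lists did not share it, such as the neuronal one above. The 5 red blood cell markers summed to 279 to 369 CPM in Sham, 96.1 to 225 CPM in SCI and 62.1 to 221 CPM in SCI+FIPI. The 6 neutrophil markers summed to 37.1 to 106, 52.1 to 66.5 and 22.3 to 133 CPM in the same order of groups. All 6 were above 0 in SCI+FIPI against SCI (median log2 fold change 0.667), and 0 were called. The part of these cell types in the differences was not tested.

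Levels of different genes were compared per length, as FPKM (the count scaled to the library total and divided by the kilobases of exon). In Sham the order was Serpine2 (31.5), F3 (23.6), Plat (14.4), Thbd (12.7), Plau (3.15), Plaur (1.01), F13a1 (0.956), F7 (0.206) and F10 (0.0653). Neighbours whose mice overlapped were Plat and Thbd, Plaur and F13a1, and F7 and F10. After SCI, Serpine2 (59.6) still led, followed by Plau (43.5), Thbd (32.5), Plat (30.5) and F3 (29.4), neighbours that each overlapped the next. F7 (18.1), F13a1 (13.4), Plaur (12.3) and F10 (2.96) came after them, and only F13a1 and Plaur overlapped there. In SCI+FIPI the FPKM were 50.1 for Serpine2, 29.4 for Thbd, 26.3 for Plau, 24.8 for F3, 23.1 for Plat, 11.8 for F7 as for F13a1, 8.75 for Plaur and 1.76 for F10. Thbd to Plat formed a chain of overlapping neighbours, as did F7 to Plaur. Serpine2 stayed highest and F10 lowest in each group when the longest transcript replaced the union of exons, but places between them depended on it: Plat (47.1) then stood above Plau (44.0) in SCI and F13a1 (22.8) above F7 (18.1). By exonic length, the highest mean exceeded the lowest 482-fold in Sham, 20.1-fold in SCI and 28.5-fold in SCI+FIPI.

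**Figure D3:**
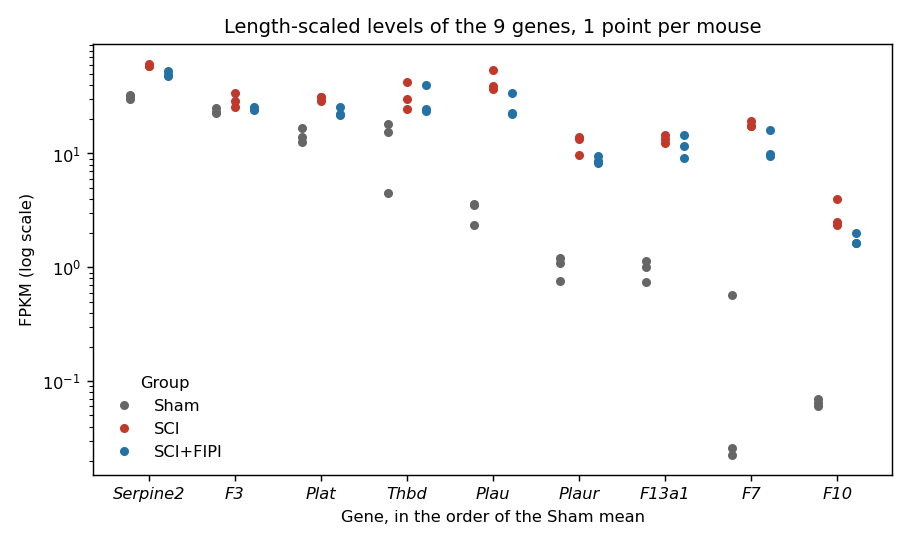
FPKM (y axis, log scale) of the 9 genes in every mouse, ordered by the Sham mean. The spread between genes is widest in Sham, where F7 and F10 lie lowest, and narrower in both injured groups.

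Genes with the most similar course over the 9 mice were sought among all genes tested, by the root mean square difference of mean-centred log2 CPM. For Plau these were Tmem273 (0.151) and Apobec1 (0.154), and for Plaur Cdk1 (0.109) and Apobec1 (0.121). Plat lay nearest to Pxdc1 (0.0920) and Pvr (0.0920), Serpine2 to Chst11 (0.0447) and Mpp1 (0.0448), and F3 to Foxo3 (0.0628) and Pla2g7 (0.0635). F10 was closest to Hmox1 (0.203) and Adam8 (0.211), F13a1 to Kif2c (0.163) and Col18a1 (0.189), and Thbd to Igfbp6 (0.172) and Scara5 (0.225). The nearest genes of F7, Cd36 (0.453) and Fabp4 (0.603), differed more than for any other of the 9. The difference is not scaled to the size or noise of a gene's changes, so it does not rank closeness between members. A small difference describes a shared course across these libraries and nothing else.

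The wider pathway comprised 49 further genes in 6 lists, of which 31 were tested. After injury 20 (64.5%) were called higher and 3 (9.68%) lower, beside 24.4% and 22.5% of all genes tested. Their median log2 fold change was 1.10. In SCI+FIPI against SCI 1 (3.23%) was called lower and 0 higher (median -0.159), beside 0.695% and 2.36% of all genes tested. Against Sham 19 (61.3%) were called higher and 2 (6.45%) lower (median 0.839), beside 21.2% and 17%. The same shares of all genes stand beside the counts of each list below, where rose and fell mean called. Large rises after injury included those of Kng1 (log2 fold change 5.26) and Kng2 (4.12), which were also high in SCI+FIPI against Sham (5.07 and 3.81). Kng1 and Kng2 encode kininogens and are near-copies, so the division of reads between them is uncertain, and Kng1 had 0, 5 and 0 counts in Sham.

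The transcript of plasminogen itself was scarce in the cord. Plg was read by 11, 23 and 4 counts in Sham, 3, 1 and 1 in SCI and 2, 6 and 3 in SCI+FIPI, and was not tested. In the list of Plg and the inhibitors of fibrinolysis, 5 of 10 genes were tested, of which 4 rose and 1 fell after injury. Serpini1, the neuronal inhibitor of the tissue-type activator, fell with injury by 1.51 on the log2 scale (SE 0.131, adjusted p = 1.62e-06), from 74.5 to 26.2 CPM, beside the 10 of 10 neuronal markers called lower. It had 33.2 CPM in SCI+FIPI (0.34 against SCI, adjusted p = 0.141).

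All 8 receptors and cofactors of plasminogen and its activators were tested, and 7 rose after injury. They included Anxa2 (log2 fold change 2.14) and S100a10 (1.26), which together bind plasminogen and the tissue-type activator at the cell surface. In SCI+FIPI against SCI 0 were called by edgeR, DESeq2 or limma-voom, with 3 at an unadjusted p under 0.05. Of these, Lrp1 (log2 fold change -0.29, adjusted p = 0.0287) and Igf2r (-0.32, adjusted p = 0.0292) missed only the fold limit, and Anxa2 (-0.20, adjusted p = 0.181) missed both limits, as did S100a10 (-0.09, adjusted p = 0.578). Of 16 coagulation factors, 8 were tested, and 4 rose and 1 fell after injury. Vwf, the platelet adhesion protein of endothelium, rose by a log2 fold change of 1.74. F8, its cargo, fell by 0.63 on that scale (adjusted p = 0.0365), with overlapping mice. F5, the cofactor of factor X, was not called after injury (0.47, adjusted p = 0.221) and was called higher in SCI+FIPI against Sham (0.80, adjusted p = 0.0458) with overlapping mice.

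The inhibitors of coagulation and the protein C pathway had 4 of 8 genes tested, and 3 rose after injury. Tfpi, which blocks tissue factor with factor VII, rose by a log2 fold change of 1.70 (adjusted p = 0.000547), and Procr, the receptor of protein C, by 2.01 (adjusted p = 3.78e-07). Neither was called in SCI+FIPI against SCI (-0.09 and -0.22). Pros1 of the same list missed only the fold limit there (-0.33, adjusted p = 0.0113), with every SCI+FIPI mouse below every SCI mouse. Of the 4 thrombin and protease receptors, 2 rose and 1 fell after injury, the latter being F2rl2 (-1.10), which also fell in SCI+FIPI against Sham (-0.66). F2r, the main thrombin receptor, was the one further gene called in SCI+FIPI against SCI. It measured 16.6, 17.4 and 16.9 CPM in Sham, 24.1, 28.4 and 27.0 CPM in SCI, and 19.9, 20.2 and 15.2 CPM in SCI+FIPI. SCI stood above both other groups in every mouse, and SCI+FIPI overlapped Sham. F2r fell by 0.52 on the log2 scale under FIPI (SE 0.106, adjusted p = 0.01), a call lost without SCI mouse 2 or SCI+FIPI mouse 3. The vitamin K cycle, with 2 of 3 genes tested, had 0 called in each comparison by edgeR, DESeq2 or limma-voom. The unadjusted p was under 0.05 for 2 of them in SCI and in SCI+FIPI against Sham and for 0 in SCI+FIPI against SCI. After injury Ggcx (log2 fold change 0.34, adjusted p = 0.000561) and Vkorc1l1 (-0.47, adjusted p = 3.09e-05) missed only the fold limit.

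**Figure D4:**
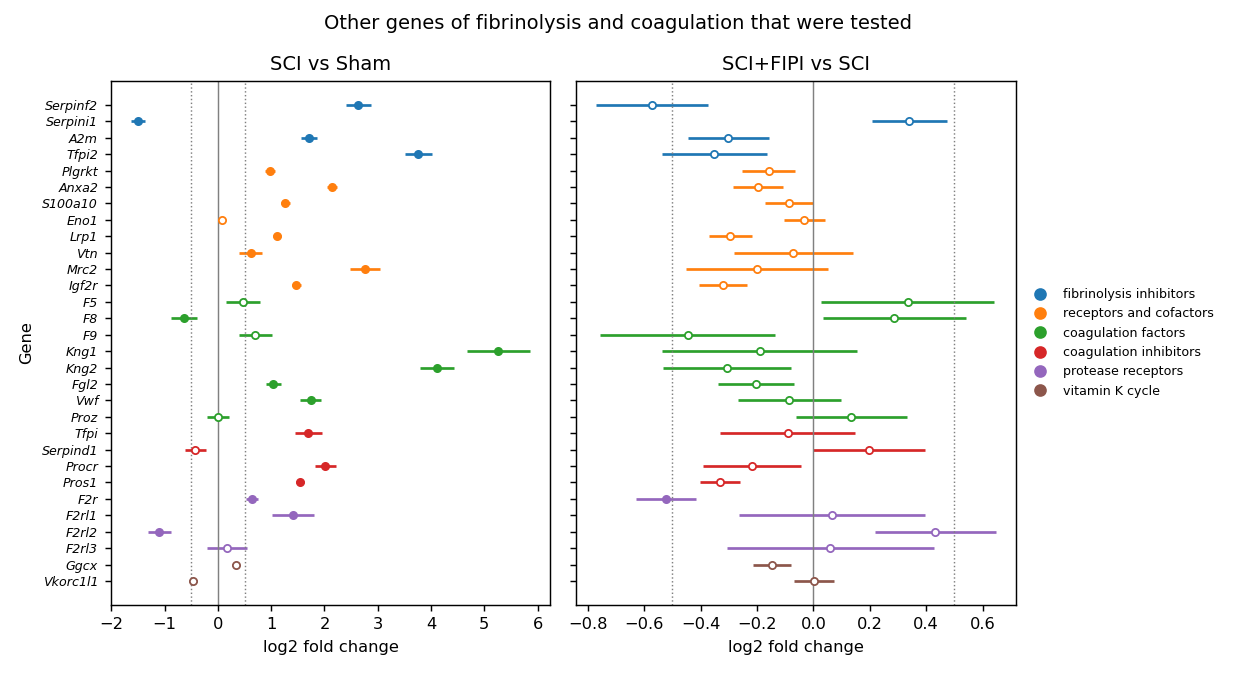
Log2 fold changes (x axis, bars of 1 SE) of further pathway genes tested, coloured by list, in SCI vs Sham and SCI+FIPI vs SCI. Filled points were called, which holds for most genes after injury and, of those drawn, for F2r alone under FIPI. Dotted lines mark the fold limit of 0.5.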

How the data were processed

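RNA was measured in 9 mice, 3 per group. The authors deposited raw counts per gene, without normalization, for 52550 Ensembl genes. The submitters' processing notes name GRCm38 and R 4.2.3, whereas the aligner, counter, annotation and use of strand are not given in the sources used here. Symbols, positions and exonic lengths came from GENCODE M21 (52403 identifiers matched). Tests were run with edgeR 4.0.16 under R 4.3.3 (TMM, filterByExpr by group, robust quasi-likelihood fit with a mean per group over all 9 mice, biological coefficient of variation 9.3%). Fold and p limits follow the study's methods, which name no test. Alternatives used DESeq2 1.42.0, limma 3.58.1, other factors and filters, a replicate block and leaving out each mouse. Replicates of a group differed by 6.59 to 12.8 in chi-square per gene, where sampling noise gives about 1, so each counted as a separate mouse. Exact permutation tests used log2 CPM with a prior count of 2, and the ratio of activators a pseudocount of 1. Members, lists and tests were chosen with earlier results of these data known. Named besides the members were a fixed set of further genes, per comparison the 3 called pathway genes with the largest rise and the 3 with the largest fall, and 2 similar genes per member. A further pathway gene stands in the counts and is not reported here. Proz, Alb, Col10a1, Pf4, Lrp1, Igf2r, Pros1, Ggcx, Vkorc1l1 and Gm30489 were named after their values or positions were seen. Promoters are those of RefSeq. Python 3.11.15 searched motifs and drew the figures.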

Additional observations from a re-analysis of the deposited data

How the results depend on the processing

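Of the 9 members, the count called after injury was 7 and became 8 with the replicate block (Thbd passed, adjusted p = 0.0361), DESeq2 and limma-voom (Thbd passed in both). The count was also 8 without the fold limit, where F3 entered (log2 fold change 0.35, adjusted p = 0.00324) and Thbd did not. It was 5 with at least 10 counts in every mouse, a filter that removed F7 and F10, and 7 on leaving out any mouse. In SCI+FIPI against SCI the count of 2 was less stable: it was 1 with upper-quartile factors, with at least 10 counts in every mouse, with the replicate block (Plaur lost, adjusted p = 0.0672) and with the block plus GC and length offsets (Plaur lost, adjusted p = 0.0678), and 4 with limma-voom or without the fold limit. Leaving out a mouse gave 0 to 2, with 0 without SCI mouse 2 or SCI+FIPI mouse 2. The other pathway genes called there, 1 in number, became 2 without a filter and 4 without the fold limit, and 0 to 2 on leaving out a mouse (0 without SCI mouse 2 or SCI+FIPI mouse 3). The cause of these shifts was not tested, apart from genes not tested and mice left out. Over all genes, 572 were called in SCI+FIPI against SCI 1800 without the fold limit, and between 189 and 1038 on leaving out a mouse (189 for SCI+FIPI mouse 2, 240, 341 and 1038 for SCI mice 3, 2 and 1), so the background share there moves as well.

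Of 187 values of single members per comparison, 183 kept their direction and their side of the limits after injury, 167 in SCI+FIPI against SCI and 183 in SCI+FIPI against Sham. Direction turned for Thbd in SCI+FIPI against SCI without SCI mouse 3 (0.0799, adjusted p = 0.964 by edgeR's test; range over single mice left out -0.453 to 0.0799), and for F3 in SCI+FIPI against Sham with GC and length offsets (-0.0641) and with the block plus those offsets (-0.0648). The log2 ratio of Plau to Plat lay between 2.55 and 2.81, -0.569 and -0.152, and 2.13 and 2.54 over the fits without a mouse, in SCI against Sham, SCI+FIPI against SCI and SCI+FIPI against Sham. Replicate numbers did not pair the mice: 1 of 9 pairs with the same number correlated above 0.1 (-0.0726 to 0.108), and 4 of 9 mice correlated best with their own number. Genes with few counts (F7 and F10 in Sham, Plg, Kng1) are measured with low precision, and 3 mice per group cannot give an exact p under 0.1.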
